A study of Mus musculus with 12 samples.

Results

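The clustered protocadherins are a family of neuronal cell surface proteins encoded side by side on mouse chromosome 18. The genes described here are the protein-coding genes on chromosome 18 whose GENCODE symbols begin with Pcdha, Pcdhb, Pcdhga, Pcdhgb or Pcdhgc. There were 57 of them among 21938 protein-coding genes: 14 alpha, 22 beta and 21 gamma genes. All 57 lay on the plus strand, between chr18:36930184-37841873 of mm10, a span of 912 kb. Of the alpha and gamma genes, 5 are known as C-type (Pcdhac1, Pcdhac2, Pcdhgc3, Pcdhgc4 and Pcdhgc5), and the other 52 are called alternate genes.

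Each neuron is known to transcribe a small and largely random choice of the alternate genes, so that neighbouring cells carry different sets of protocadherins on their surface. Like sets on sister branches of the same neuron lead to self-avoidance. C-type genes are used more evenly between cells. Each alpha or gamma gene has its own promoter and its own large first exon, which is spliced to shared constant exons, whereas a beta gene stands alone. The insulator protein CTCF and the cohesin ring bring a promoter into contact with distal enhancers in and after the alpha and gamma genes, and alternate promoters that are not chosen carry DNA methylation.

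Accessible chromatin was profiled by ATAC-seq, which reads the sites where a transposase can enter chromatin, while embryonic stem cells of the mouse grew as embryoid bodies (EBs) into spinal motor neurons and interneurons. EBs before patterning (no addition) and day 2 progenitors (2 days of 1 µM retinoic acid, RA, and 0.5 µM of the Hedgehog pathway agonist SAG) were of the genotype Ainv15(iCre). The 4 day 4 groups all received RA and SAG throughout. They were the no Dox control, which was Ainv15(iFlag.Hoxc6) without doxycycline (Dox), and the iHoxc6, iHoxc9 and iHoxc10 groups, which were Ainv15(iFlag.Hoxc6), Ainv15(iFlag.Hoxc9) and Ainv15(iFlag.Hoxc10) with 3 µg/mL Dox for the last 48 h. Per the methods of the study, each inducible line holds a single transgene copy at the HPRT locus. The no Dox control stood for all 3 induced lines but shared its genotype with iHoxc6 only, and no day 4 group shared the genotype of EBs and progenitors. Line and treatment therefore cannot be told apart in the comparisons of iHoxc9 and iHoxc10 with the control, nor line and time in those of progenitors with day 4.

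Each group had 2 samples, and the authors deposited 1 list of accessible domains per group, made from both. A domain is a stretch of the genome that their program called accessible, given by its start and end. The values below thus have no replicate error, no test between groups was possible, and no difference between lists could be set against the spread between replicates. The lists held 56232 (iHoxc10) to 94875 (EB) domains, and neither read depth nor the height of a domain was known. The no Dox list stood apart: it had 3 additional columns of constants, its name carried another day than its label, and its samples were recorded later than the others. Whether it was called with the same settings as the other lists was not tested. Marker promoters were read as a check of the labels. Of 4 pluripotency genes, 3 had a promoter domain in the EB list, 1 in the progenitor list and 0 in the day 4 lists, where Pou5f1 and Nanog were without one. Of 5 motor neuron genes, 4 (iHoxc9) or 5 (all other lists, EBs included) had one, so these promoters did not mark the cell type. Of 4 ventral progenitor genes, 3 (no Dox and iHoxc10) or 4 (all other lists, EBs included) had one, so these did not mark it either. In bulk samples, a domain carried by fewer cells and a domain that is less open in every cell cannot be told apart.

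A gene was said to hold a promoter domain when a domain overlapped the 1 kb on either side of its transcription start site (TSS) by at least 1 bp. Of the 57 clustered protocadherins, 38 held a promoter domain in the EB list (66.7%, 95% Wilson interval 53.7 to 77.5, against 65.6% of all protein-coding genes). In the progenitor list it was 26 genes (45.6%, 33.4 to 58.4, against 63.0% of all genes). At day 4, 29 genes held one without Dox (50.9%, 38.3 to 63.4, against 62.1%), 26 in iHoxc6 (45.6%, 33.4 to 58.4, against 62.3%), 16 in iHoxc9 (28.1%, 18.1 to 40.8, against 59.3%) and 18 in iHoxc10 (31.6%, 21 to 44.5, against 59.0%). The protocadherin share was thus near that of all genes in EBs and below it in the 5 later lists, though for the control the interval included the share of all genes, while the share of all genes varied by only a few percentage points between lists. The nearness in EBs rested on narrow domains. With only domains of at least 150 bp, 17 of the 57 held one in EBs, against 60.8% of all genes. With an overlap of at least 50 bp it was 26, against 63.2%, so the EB share was then below that of all genes as well. These intervals, and all below, cover counting only, and neighbouring genes are not independent of each other.

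**Figure D1:**
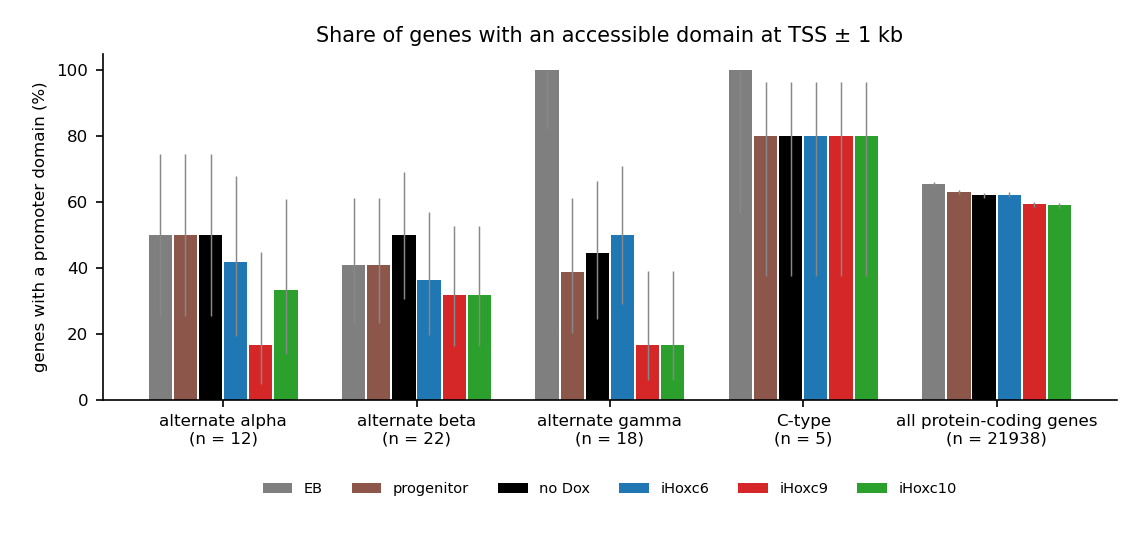
Percentage of genes (vertical axis) with an accessible domain within 1 kb of the TSS, by class of clustered protocadherin and for all protein-coding genes, with 1 bar per list and lines for 95% Wilson intervals, which cover counting only. The alternate gamma genes stood at 100% in the EB list and at 16.7 to 50% in the other 5, while all protein-coding genes stayed between 59.0% and 65.6%.

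Promoters of clustered protocadherins appeared unevenly across the lists. Between 1 and 5 of the 6 lists held a domain at 43 of the 57 promoters (75.4%), against 13.6% of all protein-coding genes. All 6 lists held one at 7 promoters (12.3%, against 56.1% of all genes), and no list did at 7 (12.3%, against 30.3%). The 7 promoters held throughout were those of the C-type genes Pcdhac1, Pcdhac2, Pcdhgc3 and Pcdhgc4 and of the alternate genes Pcdhb6, Pcdhb8 and Pcdhga2. The 7 promoters held by no list were those of Pcdha1, Pcdha8, Pcdhb5, Pcdhb7, Pcdhb9, Pcdhb12 and Pcdhb18. When only domains of at least 150 bp were kept, 25 of the 52 alternate genes were held by 1 to 5 lists (48.1%, against 12.8% of all genes), 27 by none and 0 by all 6.

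The domains themselves were small. Where a protocadherin promoter held a domain, the median number of its bases under domains was 148 bp in EBs, 56.5 bp in progenitors, 170 bp without Dox, 49.5 bp in iHoxc6, 158 bp in iHoxc9 and 162 bp in iHoxc10. Over all protein-coding genes that held one, this median lay between 670 bp (iHoxc9) and 993 bp (no Dox). Over the 6 lists, 65 of 168 domains at protocadherin promoters were narrower than 50 bp. A presence or absence of such a narrow domain rests on few bases, so the covered bases are given beside it.

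Of the 5 C-type genes, 4 differed from both patterns, with a covered length of at least 379 bp in every list. The promoter of Pcdhac2 (TSS at position 37143503) was covered over 1042 bp in EBs, 835 bp in progenitors, 1400 bp without Dox, 847 bp in iHoxc6, 1052 bp in iHoxc9 and 830 bp in iHoxc10. That of Pcdhac1 (TSS at 37090013) was covered over 612, 763, 739, 379, 614 and 698 bp in the same order. Both promoters were thus broadly covered in every list, and for Pcdhac1 the narrowest coverage was that of iHoxc6. Pcdhgc3 (TSS at 37806364) was covered over 507 bp in EBs and over 1162, 934, 878, 951 and 894 bp in the later lists. Pcdhgc4 (TSS at 37815079), whose protein is known to protect neurons from developmental cell death, was covered over 480, 544, 835, 446, 438 and 506 bp. For Pcdhgc3 the EB list gave the lowest value, whereas for Pcdhgc4 the control stood out with the highest. Pcdhgc5 (TSS at 37819513) differed from the other 4: it held 59 bp in the EB list and no domain in the 5 others.

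**Figure D2:**
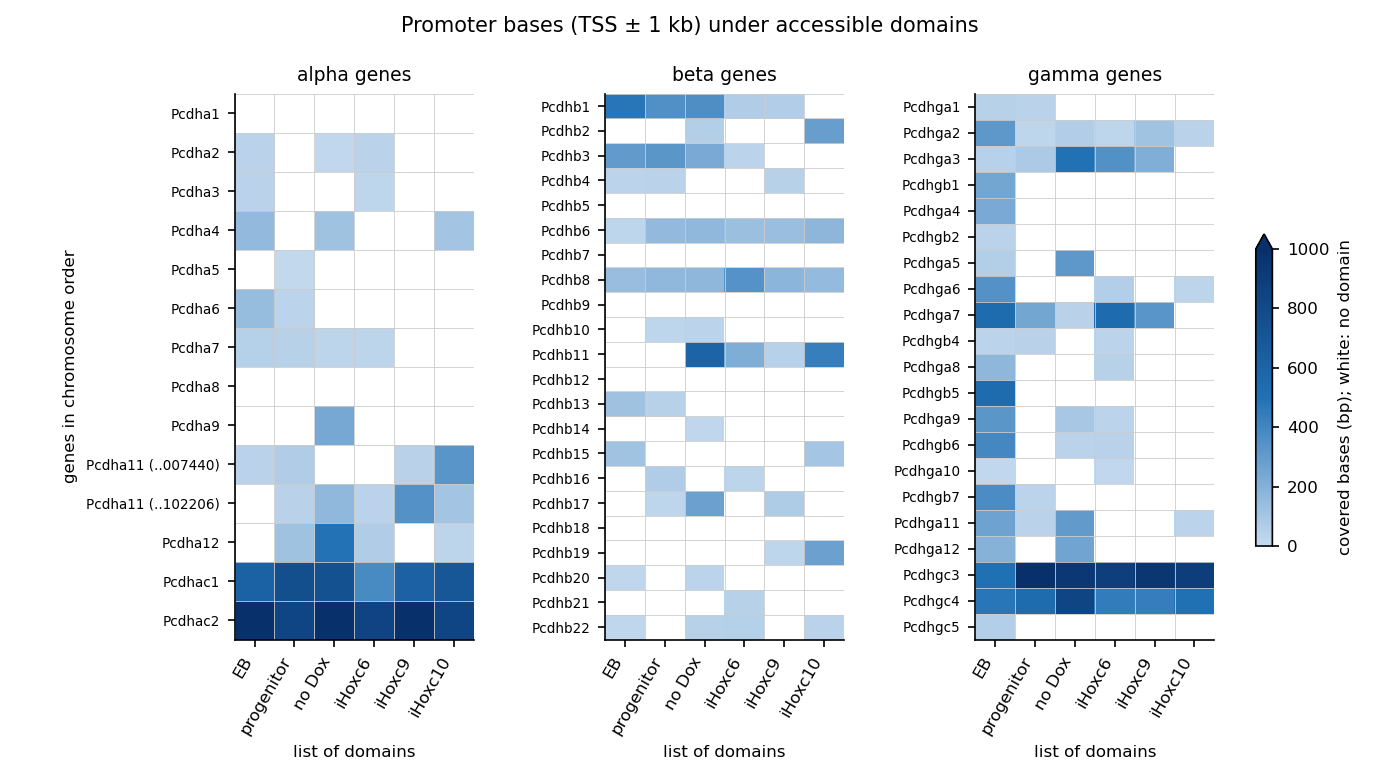
Bases of the window TSS ± 1 kb that lay under accessible domains (colour, bp, white for no domain), for each of the 57 genes (rows, in chromosome order) in each of the 6 lists (columns); the 2 records named Pcdha11 carry the last digits of their identifiers. The C-type rows Pcdhac1, Pcdhac2, Pcdhgc3 and Pcdhgc4 are filled in every column, and the EB column is filled for every gamma gene.

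Of the classes, the alternate gamma genes differed most in number between the EB list and the later lists. All 18 (12 Pcdhga and 6 Pcdhgb genes, interleaved) held a promoter domain in EBs, and 7 did in progenitors, 8 in the control, 9 in iHoxc6, 3 in iHoxc9 and 3 in iHoxc10. The 6 Pcdhgb genes went from 6 in EBs to 2, 1, 2, 0 and 0 in the same order. In EBs the median covered length of the 18 promoters was 240 bp, and it was 38.0 bp over the 7 promoters of the progenitor list. With only domains of at least 150 bp, 11 alternate gamma genes held one in EBs and 1 in progenitors (60.8% and 58.9% of all genes). With lists cut to equal length it was 12 and 1 (62.6% and 60.7%), so the EB count was also the higher one among wider domains. Change of stage and calling of domains cannot be told apart with 1 list per group.

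Single gamma genes varied in different ways. Pcdhgb5 was covered over 540 bp in the EB list and was without a domain in the 5 others. Pcdhgb6 was covered over 390 bp in EBs, 36 bp without Dox and 42 bp in iHoxc6, and Pcdhgb7 over 370 bp in EBs and 34 bp in progenitors, with no domain at either gene in the remaining lists. Pcdhga7, in contrast, was covered over 544 bp in EBs, 247 bp in progenitors, 42 bp without Dox, 545 bp in iHoxc6, 328 bp in iHoxc9 and 0 bp in iHoxc10. Pcdhga7 was thus as wide in iHoxc6 as in EBs, and narrow in the control of the same line. Pcdhga3 took another order, with 47, 81, 497, 349, 213 and 0 bp, the widest value being that of the control. Pcdhga6 was covered over 344 bp in EBs, 60 bp in iHoxc6 and 28 bp in iHoxc10, and Pcdhga9 over 323 bp in EBs, 92 bp without Dox and 35 bp in iHoxc6. Pcdhga5 had 56 bp in EBs and 313 bp without Dox. Of the genes named in this paragraph, each was without a domain in at least 1 list, and no pair had the same order of values.

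Alternate alpha and beta promoters were held less often in EBs than alternate gamma promoters, and their number hardly differed between EBs and progenitors. Of 12 alternate alpha genes, 6 held a promoter domain in EBs, 6 in progenitors, 6 in the control, 5 in iHoxc6, 2 in iHoxc9 and 4 in iHoxc10. The equal counts covered different genes: from EBs to progenitors, Pcdha5, Pcdha12 and the Pcdha11 record ENSMUSG00000102206 came to hold a domain, and Pcdha2, Pcdha3 and Pcdha4 ceased to. Pcdha12 was covered over 0 bp in EBs, 118 bp in progenitors, 496 bp without Dox, 67 bp in iHoxc6, 0 bp in iHoxc9 and 31 bp in iHoxc10. The annotation holds 2 records named Pcdha11, between Pcdha9 and Pcdha12, and no protein-coding gene named Pcdha10 there. Both are therefore named with their identifiers, and either may bear the name Pcdha10 in other annotations. The record ENSMUSG00000102206 (TSS at 37010712) was covered over 0, 40, 164, 38, 347 and 106 bp, and ENSMUSG00000007440 (TSS at 37005203) over 37, 69, 0, 0, 41 and 328 bp. The widest coverage of the first was thus in iHoxc9 and that of the second in iHoxc10. Pcdha9 held 239 bp without Dox and nothing elsewhere. Other alternate alpha promoters stayed at or below 154 bp (Pcdha4, EBs), with Pcdha6 at 141 bp in EBs and 33 bp in progenitors, Pcdha7 at 30 to 54 bp in 4 lists and Pcdha2 at 19 to 38 bp in 3.

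Among the 22 beta genes, 9 held a promoter domain in EBs, 9 in progenitors, 11 in the control, 8 in iHoxc6, 7 in iHoxc9 and 7 in iHoxc10. Pcdhb1, the first beta gene along the chromosome, was covered over 477, 353, 362, 67, 65 and 0 bp in the order of the lists. Pcdhb3 had 308, 323, 231, 33, 0 and 0 bp. In both genes each of the 3 lists without an induced Hox gene gave wider coverage than each of the 3 induced lists. Pcdhb11 went the other way in time, with no domain in EBs and progenitors and 594 bp without Dox, 216 bp in iHoxc6, 49 bp in iHoxc9 and 432 bp in iHoxc10. Pcdhb19 held a domain only in iHoxc9 (25 bp) and iHoxc10 (272 bp), and Pcdhb2 in the control (58 bp) and iHoxc10 (288 bp). Pcdhb17 was covered over 25 bp in progenitors, 270 bp without Dox and 72 bp in iHoxc9, Pcdhb13 over 117 bp in EBs and 45 bp in progenitors, and Pcdhb15 over 111 bp in EBs and 104 bp in iHoxc10. The beta promoters of every list, Pcdhb8 and Pcdhb6, were narrow: Pcdhb8 was covered over 137, 163, 170, 343, 179 and 149 bp and Pcdhb6 over 24, 153, 162, 130, 136 and 174 bp.

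The lists were then compared gene by gene in 6 pairs, 3 between EBs, progenitors and the control and 3 between the control and an induced list. From EBs to progenitors, 6 protocadherin promoters gained a domain, that is, held one in the second list and not in the first (1.93% of all genes did), and 18 lost one (4.52% of all genes). Of the 18 promoters that lost a domain 11 were alternate gamma promoters, all 18 of which held one in EBs. From EBs to the no Dox control, 8 gained a domain (2.14% of all genes) and 17 lost one (5.67%), 10 of them alternate gamma. From progenitors to the control, 12 gained a domain (1.84%) and 9 lost one (2.78%), so domains came and went, among them those of Pcdhb11, with 594 bp in the control, and Pcdhb13, with 45 bp in progenitors. In every one of these pairs the 4 C-type promoters that the progenitor list held stayed held.

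The 3 induced lists were each compared with the no Dox list, which they share, so that any peculiarity of it enters all 3 comparisons. In iHoxc6, 7 protocadherin promoters gained a domain (2.35% of all genes) and 10 lost one (2.11%). In iHoxc9, 3 gained a domain (1.14%) and 16 lost one (3.93%). In iHoxc10, 4 gained a domain (0.848%) and 15 lost one (3.92%). The promoters that iHoxc9 gained were those of Pcdha11 (ENSMUSG00000007440), Pcdhb4 and Pcdhb19, and those that iHoxc10 gained were the same Pcdha11 record, Pcdhb15, Pcdhb19 and Pcdhga6. Losses in iHoxc9 took 5 of the 6 alternate alpha, 6 of the 11 beta and 5 of the 8 alternate gamma promoters of the control, and losses in iHoxc10 took 3, 6 and 6. None of the 4 C-type promoters of the control was lost in an induced list. The iHoxc9 and iHoxc10 lists were also the shortest, with 63504 and 56232 domains against 88806 in the control. When every list was cut to the 56232 widest domains, 18 protocadherins held a promoter domain in the control, 12 in iHoxc6, 15 in iHoxc9 and 18 in iHoxc10, with 2 gained and 8 lost from the control to iHoxc6, 4 gained and 7 lost to iHoxc9, and 7 gained and 7 lost to iHoxc10. In iHoxc10 losses thus no longer outnumbered gains in this setting, which shortens the lists and removes narrow domains together. With domains of at least 150 bp in lists of their own length, 3 were gained and 10 lost in iHoxc10. The percentages of all genes that gained or lost a domain were not taken in either setting.

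Domains away from the TSS were read next. A second place of accessible chromatin lay 1.5 to 3 kb after the TSS, a zone that was chosen after the data were seen. Here 26 of the 57 genes held a domain in EBs (11.9% of all protein-coding genes), 9 in progenitors (12.2%), 8 in the control (14.2%), 4 in iHoxc6 (12.3%), 4 in iHoxc9 (8.06%) and 1 in iHoxc10 (7.99%). The share of protocadherins was thus above that of all genes in EBs and near or below it in the later lists. Beta genes made up most of these, with 17 of 22 in EBs and 8, 6, 4, 3 and 1 in the later lists, while 5 of 18 alternate gamma and 2 of 12 alternate alpha genes held such a domain in EBs. All 21 EB domains in this zone of beta genes lay within the large coding exon, at a median of 2120 bp after the TSS and 443 bp before the end of the coding sequence of that exon, whose median length in beta genes was 2388 bp. The widest were those of Pcdhb18 (877 bp), Pcdhb3 (478 bp), Pcdhb7 (434 bp) and Pcdhb14 (413 bp). Pcdhb18 and Pcdhb7 held no promoter domain in any list, nor did Pcdhb5 (43 bp in this zone) and Pcdhb12 (351 bp). The domain within Pcdhb3 recurred in 5 lists, with 478 bp in EBs, 308 bp in progenitors, 172 bp without Dox, 0 bp in iHoxc6, 146 bp in iHoxc9 and 34 bp in iHoxc10, and that within Pcdhb10 in 5, with 326, 154, 131, 158, 69 and 0 bp.

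**Figure D3:**
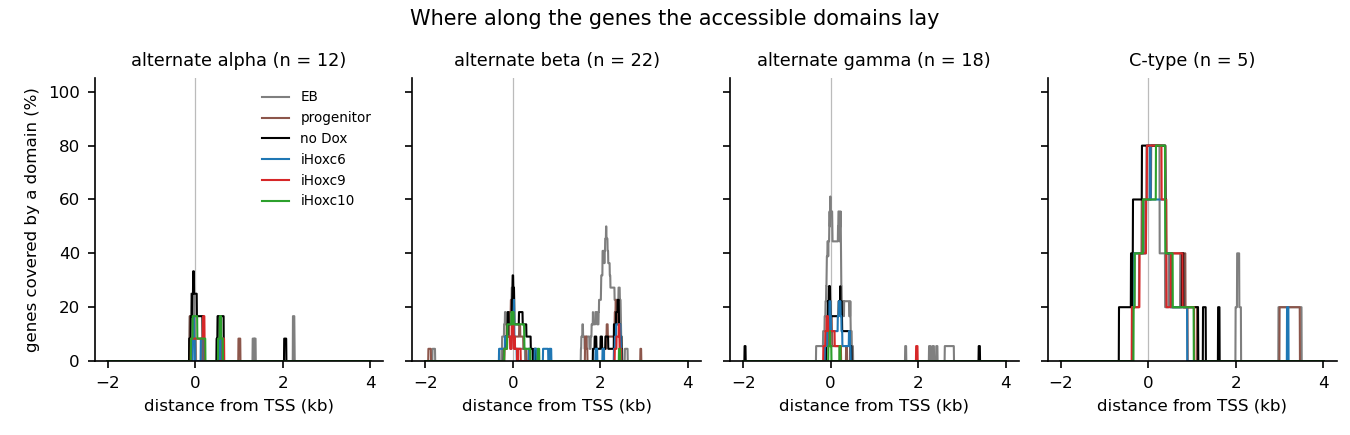
Percentage of genes (vertical axis) whose position at a given distance from the TSS (horizontal axis, kb) lay under a domain, for each class and list, drawn every 5 bp. Beta genes show a second rise about 2 kb after the TSS, highest in the EB list, where 11 of 22 genes were covered at 2129 bp, and alternate gamma genes a rise at the TSS in the EB list, where 11 of 18 were covered.

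Neighbouring protocadherins share stretches of sequence, and reads of a pair that lies wholly in these cannot be assigned to one gene. How such reads were treated is not given in the sources used here. As a measure of it, the percentage of 50-bp words that occur more than once, on either strand, in the span and its flanks of 100 kb was taken for each gene. In the promoter window this median was 8.71% for alternate alpha, 0% for beta, 0.384% for alternate gamma and 0% for C-type genes. In the zone 1.5 to 3 kb after the TSS it was 11.1, 5.03, 0.413 and 0%, and the highest value was 30.7%, in Pcdhgb2. In the promoter window the highest values of beta genes were 9.02% (Pcdhb7), 10.8% (Pcdhb9), 9.63% (Pcdhb10), 11.2% (Pcdhb11) and 12.7% (Pcdhb12). The highest of an alternate gamma gene was 10.6% (Pcdhgb4). Values of these genes and of the alternate alpha genes may therefore be less certain than those of the C-type genes. A pair of reads can reach beyond a repeated word, though, and words repeated elsewhere in the genome were not counted. Among promoters held by no list, the percentage ran from 0% (Pcdhb18) to 13.1% (Pcdha8). Within the zone, the beta genes with the widest EB domains had 11.4% (Pcdhb18), 7.16% (Pcdhb3), 3.58% (Pcdhb7) and 8.33% (Pcdhb14). The part of repeated words in the results, missing domains included, was not tested.

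Over the whole span the EB list held 94 domains, the progenitor list 51, the control list 59, the iHoxc6 list 46, the iHoxc9 list 29 and the iHoxc10 list 27. This came to 103, 55.9, 64.7, 50.5, 31.8 and 29.6 domains per Mb, against 34.8, 32.3, 32.6, 33.5, 23.3 and 20.6 per Mb over chromosomes 1 to 19, X and Y. Domains were thus denser here than over the genome in each list, and the EB list held the most in both. Genes were denser here as well, with 57 clustered protocadherins in 912 kb, against 21938 protein-coding genes in 2725521 kb. The densities of domains were not adjusted for this. Of the alpha, beta and gamma stretches, the gamma genes held the most domains per Mb in each list, with 38 domains and 4.47% of their 180 kb covered in EBs, 16 domains and 2.34% in progenitors, and 8 domains and 1.28% in iHoxc9. The 100 kb before Pcdha1 held no domain in any list. Domains at protocadherin promoters made up 44.7% of the EB domains in the span and 66.7% of those of iHoxc10, with the other 4 lists in between.

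Where domains of the 6 lists were merged when they overlapped, the span held 144 regions. Of these, 11 were held by all 6 lists (7.64%, against 11.2% of regions over the genome) and 48 by the EB list only (33.3%, against 21.1%). Regions held by only 1 of the day 4 lists made up 10.4% for the control (11.1% over the genome), 6.94% for iHoxc6 (11.3%), 1.39% for iHoxc9 (5.31%) and 0.694% for iHoxc10 (2.95%). Of 77 regions away from protocadherin promoters 36 were held by the EB list only, and of 67 at promoters 12. The same split was not made over the genome, so it cannot be read as a feature of the cluster.

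**Figure D4:**
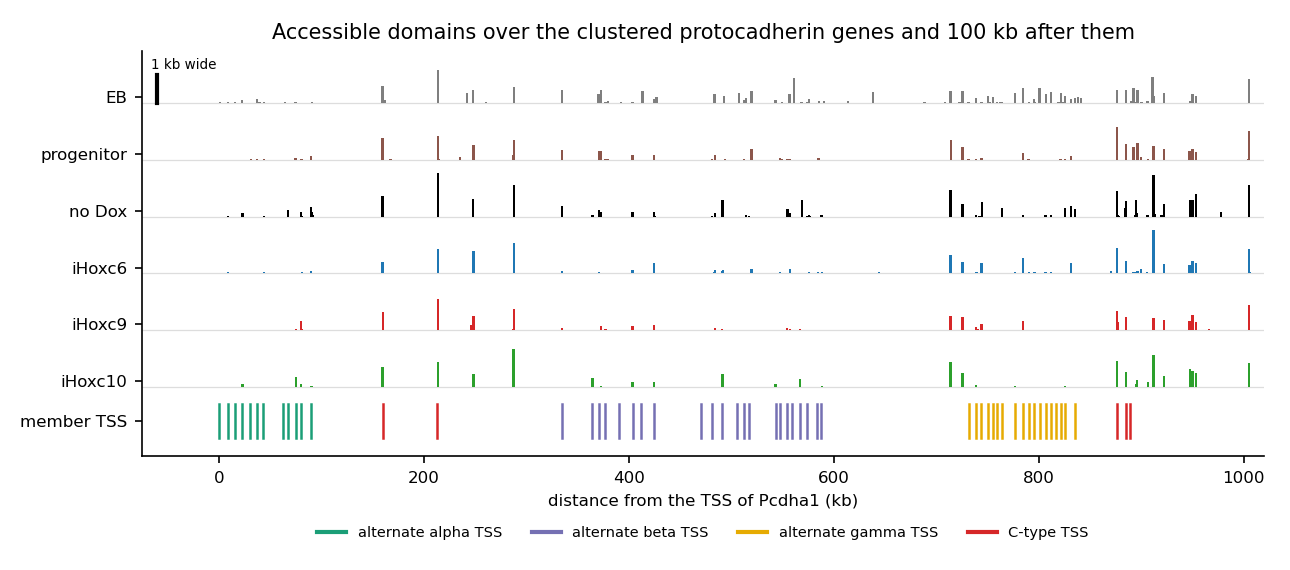
Accessible domains of the 6 lists (1 row each) along the clustered protocadherin genes and the 100 kb after them, by distance from the TSS of Pcdha1 (kb); the height of a bar is the width of the domain, with a scale bar of 1 kb, and coloured ticks mark the TSS of each class. Tall bars recur in all rows at the promoters of Pcdhac1, Pcdhac2, Pcdhgc3 and Pcdhgc4 and at the regions 248, 288, 714, 726 and 912 kb from the start. Small bars over the beta and gamma genes are most frequent in the EB row.

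Of the 11 regions held by all 6 lists, 6 lay at the promoters of Pcdhac1, Pcdhac2, Pcdhb6, Pcdhb8, Pcdhgc3 and Pcdhgc4, and 5 lay elsewhere. The first of the latter, chr18:37178250-37179042, lay 35.1 kb after the TSS of Pcdhac2, in an intron of the alpha genes ahead of their constant exons and over an exon of the predicted gene Gm10544. Its domains were 464 bp wide in EBs, 536 bp in progenitors, 621 bp without Dox, 766 bp in iHoxc6, 481 bp in iHoxc9 and 441 bp in iHoxc10. The second, chr18:37217177-37218522, lay between the alpha and the beta genes, 47.1 kb ahead of the TSS of Pcdhb1, in introns of 3 read-through gene models, and was 585, 882, 1103, 1081, 788 and 1315 bp wide. This region was the widest domain away from promoters in the progenitor, iHoxc9 and iHoxc10 lists, and its EB value was the lowest of the 6. Between the beta and gamma genes lay the promoter of Taf7, a subunit of the general transcription factor TFIID, with 437 to 918 bp, and a region at chr18:37655528-37656046, 6.01 kb ahead of the TSS of Pcdhga1 over an exon of 3222401L13Rik, with 410 to 479 bp. The last of the 5 lay at the 3′ end of the gamma genes, over their shared last exon and beyond it (chr18:37840741-37843000), and was 1162, 813, 1481, 1524, 669 and 1113 bp wide. In EBs its widest domain began at position 37840741, and in the control, iHoxc6 and iHoxc10 between 37841359 and 37841628, so that within this region the covered part differed.

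Beyond the gamma genes, in the first 100 kb, the lists held between 6 (iHoxc10) and 9 (no Dox) domains, and 5 regions were held by all 6 lists. Of these, 4 lay in introns of Diaph1, a formin, at 10.4, 35.6, 38.4 and 42.0 kb after the end of the span, and the other at the promoter of Diaph1. The stretch after the gamma genes is known to hold enhancers of the beta genes, and the intron between the C-type exons and the constant exons an enhancer of the alpha genes, but these domains were not matched to named elements here. The region at 35.6 kb was 79 bp wide in EBs, 298 bp in progenitors, 571 bp without Dox, 293 bp in iHoxc6, 331 bp in iHoxc9 and 618 bp in iHoxc10. Its EB value was the lowest, and so were those at 38.4 kb (322 bp, with 366 to 575 bp later) and at 42.0 kb (266 bp, with 277, 794, 363, 267 and 473 bp later), the latter by only 1 bp. The EB value was not the lowest at 10.4 kb (342 bp, with 340 bp in iHoxc6). Nor was it at the promoter of Diaph1 (860 bp, with 833 bp in iHoxc10). Nearer to the genes, in the intron 7.07 kb after the TSS of Pcdhgc5, a region was held by 5 lists, with 466, 582, 129, 68, 0 and 215 bp.

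**Figure D5:**
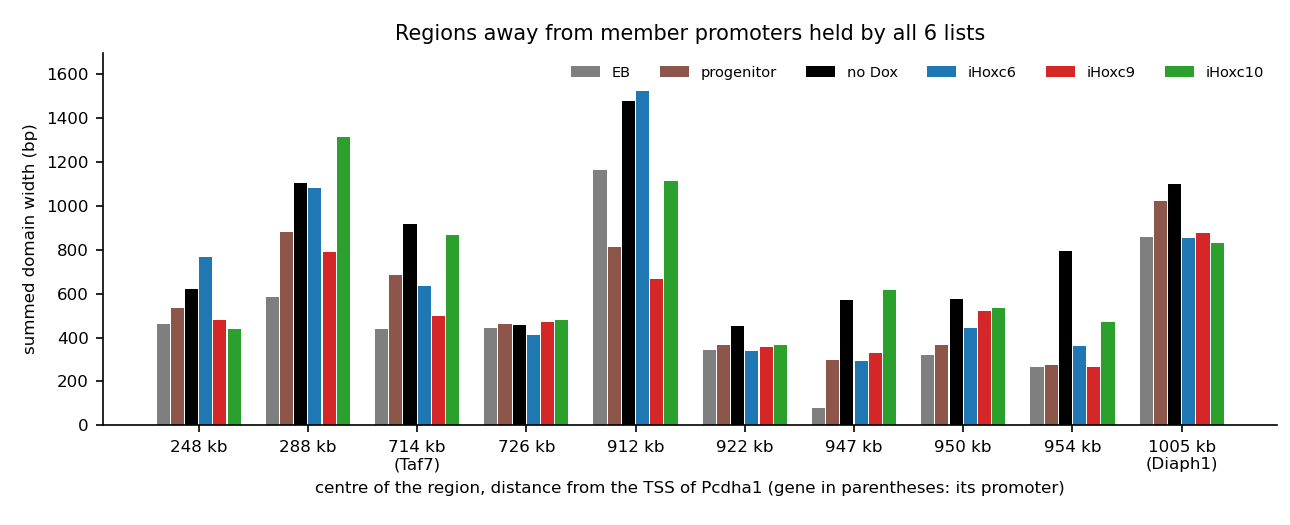
Summed width of domains (vertical axis, bp, from 0) in each of the 6 lists, for the 10 regions away from clustered protocadherin promoters that all 6 lists held, by distance of their centre from the TSS of Pcdha1. The region at 288 kb runs from 585 bp in EBs to 1315 bp in iHoxc10, and that at 726 kb from 410 to 479 bp.

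The classes also differed in the sequence of their promoters. The median GC content of the window TSS ± 1 kb was 41.7% for alternate alpha, 42.1% for beta, 45.3% for alternate gamma and 51.4% for C-type genes, against 51.2% for all protein-coding genes. The ratio of observed to expected CpG, which is high in CpG islands, had a median of 0.641, 0.334, 0.507 and 0.566, against 0.474. A CTCF-like string (CC, any 3 bases, AG, any 2 bases, GGC), searched on both strands, was found in 12 of 12 alternate alpha, 2 of 22 beta, 8 of 18 alternate gamma and 4 of 5 C-type windows, and in 36.9% of all promoters. In 10 of the 12 alternate alpha genes a match lay within 300 bp of the TSS (17.5% of all promoters), and in 9 of the 12 one lay farther out (24.2% of all promoters). Of the 18 alternate gamma windows, 1 held a match within 300 bp and 8 held one farther out. Alternate alpha genes are known to carry CTCF sites both at the promoter and in the first exon. In these genes the matches within 300 bp began 104 to 250 bp after the TSS, and in Pcdha4 also at -50 bp. The matches were not assigned to either kind of site. Of the 33 domains at alternate alpha promoters over the 6 lists 7 overlapped a match (21.2%), and of all promoter domains 26.9%, which were wider, with a median of 679 bp against 44.0 bp. The string CGCT, the core of an element shared by alternate protocadherin promoters, and the Hox cores TAAT and ATAAA, each on both strands, were found in all 57 windows, and in 92.7, 99.3 and 95.5% of all promoters. In windows of 200 bp around the centres of domains in the span, CGCT was found in 71.7% (iHoxc6) to 93.1% (iHoxc9) of windows, against 44.0 to 51.9% over the genome. TAAT was found in 40.4% of EB and 44.8 to 52.5% of later windows, against 46.9% and 52.4 to 56.4% over the genome. The median width of domains in the span was 66.0 bp (iHoxc6) to 215 bp (iHoxc10), so many windows reached beyond their domain. A match of these letters is a description and not evidence of binding.

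Genes that resemble the clustered protocadherins, act on them or work with them were read from fixed lists. The 10 non-clustered protocadherins, which encode adhesion proteins of like build but stand alone in the genome, held a promoter domain in 10 of 10 cases in 5 lists and 9 of 10 in iHoxc10, the exception being Pcdh11x. Their median coverage was 774 bp in EBs, 732 bp in progenitors, 1350 bp without Dox, 956 bp in iHoxc6, 688 bp in iHoxc9 and 644 bp in iHoxc10. Of 14 genes of factors that act on the cluster, 12 or 13 held a promoter domain in each list. Ctcf was covered over 1465 to 1765 bp and Rad21, a cohesin subunit, over 982 to 1625 bp. Smchd1 and Setdb1, which are known to silence alternate promoters, and Dnmt3b, which methylates them, held a domain in every list, Dnmt1 in none and Stag1 in progenitors only, with 38 bp. The genes of these fixed lists were read only at the TSS of the gene record. A domain at another TSS of Dnmt1 or Stag1 would thus not be counted. Of 6 partners inside the cell, the focal adhesion kinase gene Ptk2 and the genes Ret, Wasf1, Cyfip1 and Cyfip2 held a domain in every list. Ptk2b, which encodes the related kinase PYK2 that alpha and gamma protocadherins bind, held one in EBs (460 bp) and progenitors (231 bp) and none at day 4. Within the span, Taf7 held a promoter domain in 6 lists and the solute carrier gene Slc25a2 in EBs only, with 35 bp.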

How the data were processed

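ATAC-seq was done on 12 samples in 6 groups. Per the methods of the study and the processing notes of the submitters, the authors mapped paired-end reads to mm10 with Bowtie2 2.2.2 and called accessible domains with DomainFinder, and Picard 2.8.2 is named without its role. The deposited lists give start and end of each domain, 1 list per group from both replicates, with no counts or scores. Starts were read as in BED files, so positions are uncertain by 1 bp, and are printed counting from 1. Genes and TSS (5′ end of the gene record) were from GENCODE M21 on GRCm38, on chromosomes 1 to 19, X and Y. The polymorphic pseudogene Pcdhgb8 and read-through models were no members.

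Values per list were given for C-type genes, for genes held by all or no lists, and for up to 10 genes per subcluster with the widest range of covered bases. The members and the lists of genes were chosen with earlier results of these data known. Python 3.11.15, NumPy 2.4.6, SciPy 1.17.1 and Matplotlib 3.10.9 were used. The code that finds overlaps, merged regions and motifs passed all 8 checks when tested on simulated data. Shares have Wilson intervals at the 95% level. Alternatives were promoters of 500 bp or 2 kb on either side, the TSSs of all protein-coding transcripts, a minimum domain width of 150 bp, lists cut to the length of the shortest, a minimum overlap of 50 bp and another span.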

Additional observations from a re-analysis of the deposited data

How the results depend on the processing

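No paired analysis was possible because each group has 1 list made from both replicates, and for the same reason no replicate could be left out. Counts of promoters held, gained and lost moved by at most 1.5 times with promoters of 500 bp or 2 kb on either side and with the TSSs of all protein-coding transcripts, as did domains and regions with the span taken from the first to the last TSS. The number of alternate genes held by no list went from 7 to 3 with 2 kb. With domains of at least 150 bp, promoters held in EBs, progenitors, no Dox, iHoxc6, iHoxc9 and iHoxc10 numbered 17, 9, 16, 7, 8 and 9. Of all genes, 60.8, 58.9, 58.2, 57.9, 54.1 and 55.8% held one. Alternate gamma promoters then numbered 11 (EBs), 1 (progenitors), 4 (no Dox), 2 (iHoxc6) and 0 (iHoxc10). From EBs to progenitors 2 were then gained and 10 lost, from progenitors to no Dox 8 gained and 1 lost, and from EBs to no Dox 8 gained and 9 lost. From no Dox, 1 was gained and 10 lost in iHoxc6, and 2 gained and 10 lost in iHoxc9. Domains in the span numbered 39, 21, 27, 13, 15 and 16, and regions 58, with 19 in EBs only. With lists of equal length, promoters held numbered 23 (EBs), 12 (progenitors), 18 (no Dox) and 12 (iHoxc6), against 62.6, 60.7, 59.5 and 59.8% of all genes. Alternate gamma promoters then numbered 1 (progenitors), 4 (no Dox) and 3 (iHoxc6). From progenitors to no Dox 9 were then gained and 3 lost. From no Dox, 2 were gained and 8 lost in iHoxc6, 4 gained and 7 lost in iHoxc9, and 7 gained and 7 lost in iHoxc10. Domains in the span numbered 50, 28, 32 and 25 in EBs, progenitors, no Dox and iHoxc6, and regions 78, with 24 in EBs only. With an overlap of at least 50 bp, or with domains of at least 50 bp, an alternative added after seeing the data, promoters held numbered 13 in progenitors and 13 in iHoxc6, alternate gamma promoters 2 (progenitors), 3 (iHoxc6) and 0 (iHoxc10). Under both, 11 were gained and 3 lost from progenitors to no Dox, 3 gained and 11 lost in iHoxc6, and 1 gained and 10 lost in iHoxc9. With domains of at least 50 bp, domains in the span numbered 57, 30, 38 and 26 in EBs, progenitors, no Dox and iHoxc6, and regions 84, with 28 in EBs only. Counts not listed for a setting, of promoters per list, gains, losses, domains and regions, moved by at most 1.5 times. Percentages of all genes were not taken for the gains and losses in these settings. These settings leave fewer domains by their construction. The EB list gave the highest number of held promoters under every setting tried, and of alternate gamma promoters likewise, while the order of the day 4 lists differed between settings. Read depth is unknown, so a missing domain may be one that was not detectable.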
